A study of Arabidopsis thaliana with 29 samples.

Results

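The genes described here are those whose signal was higher in *A. thaliana* seedlings kept on ACC, the direct precursor of the gaseous hormone ethylene, in both of 2 kinds of Ca2+-buffering transgenic seedlings. A probe set, the group of array features that measures a transcript, was a member when the mean of the 3 ACC-treated arrays exceeded the mean of the 3 untreated control arrays by at least 0.8 on the log2 scale in *PV-NES* and also in *PV-NLS*. Members were thus chosen by their measured ACC values in the transgenics. Of 22746 probe sets, 97 met this rule after the peroxidase AT5G19890 was left out by choice. The annotation at hand gave 1 gene for 48 of them, several genes for 2 and no gene for 47. Only the 48 are named. On its own, the threshold was reached by 165 probe sets in *PV-NES* and by 235 in *PV-NLS*, and 135 probe sets were lower by as much in both.

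All seedlings were of the Col-0 ecotype and were wild type (WT) or carried a transgene for parvalbumin, a Ca2+-binding protein of animal origin. In *PV-NES* a nuclear export signal places parvalbumin in the cytosol, and in *PV-NLS* a nuclear localisation signal places it in the nucleus. Seedlings were grown for 3 days and then held for 5 days on medium with 1 μM ACC, 10 μM ABA or 50 μM MeJA, or on medium without hormone (control), and RNA of whole seedlings was hybridised to 29 ATH1 arrays. Each treatment of *PV-NES* was measured in independent lines 1, 7 and 11 and each treatment of *PV-NLS* in lines 4, 5 and 8, with 1 array a line, whereas WT had 2 controls and a single array per hormone. The promoter driving parvalbumin was not given in the sources used here, and the transgene itself is not measured by the array.

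Plants make ethylene by oxidising ACC, so feeding ACC is a standard way to raise ethylene. Ethylene is sensed by a family of receptors, and the signal reaches the nucleus through EIN2 and the transcription factor EIN3. In seedlings it is known for slowing root and hypocotyl elongation and for promoting root hairs. ABA is the hormone of water shortage and seed dormancy, and MeJA is the methyl ester of jasmonate, the hormone of wounding and defence.

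Signals are given on the log2 scale, on which a difference of 1 is a 2-fold change. Arrays of 1 group correlated with r of 0.982 to 0.997 across probe sets, and array medians lay between 5.25 and 5.38. The members were mostly dim: in 58 of the 97, and in 31 of the 48 named, the control means of all 3 genotypes lay below the median of every array, as they did for 10761 of all 22746 probe sets. Whether such signals exceeded background was not tested, and the size of a difference from so low a signal is uncertain. The 2 WT controls differed for these genes. WT control replicate 1 was lower than replicate 2 for 79 of the 97 members against 47.1% of all probe sets, with a median difference of -0.59, and it was lower by more than 1 for 28 members against 2.08% of all. WT values are therefore also given without it. Of the green tissue and root marker genes listed, 1 each was measured. Here and below, a listed gene counts as measured only if the annotation at hand tied a probe set to it alone. The array may hold probes for the others. RCA, the activase of Rubisco, differed by -0.54 in WT after ACC, by -0.11 in *PV-NES* and by 0.03 in *PV-NLS*. BGLU23, an abundant root beta-glucosidase, differed by 0.31, -0.14 and 0.08 in the same order. Their part in the results was not tested, and in whole seedlings more cells of a type and more RNA per cell cannot be told apart.

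The values that chose the members are described here without a test. Over the 97 members, the difference between ACC and control had a median of 1.2 in *PV-NES* (0.80 to 3.54) and 1.12 in *PV-NLS* (0.80 to 3.96). The 3 ACC arrays were all above the 3 control arrays for 96 members in *PV-NES*, against 16.9% of all probe sets, and for 96 in *PV-NLS*, against 18.0%. By line, the median difference was 1.11 in *PV-NES* line 1, 1.41 in line 7 and 1.16 in line 11, and 1.19, 1.37 and 0.97 in *PV-NLS* lines 4, 5 and 8. These medians and both counts of 96 follow in large part from the rule. Nothing is read from their contrast with the shares of all probe sets. Just inside the threshold lay WAG2, a protein kinase that acts in root waving, at 0.801 and 1.049 (*PV-NES* and *PV-NLS*), and probe set 258218_at at 0.801 and 1.136. Just outside lay AT5G05880 at 1.061 and 0.799 and AT5G51470 at 0.797 and 0.95.

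The WT arrays were not used to choose the members, so the ACC response in WT was tested. ACC raised most of the set in WT too: 58 of the 97 members were higher and 0 were lower (limma, log2 difference beyond 1 and adjusted p under 0.05), 32 of them named, whereas 1.99% of all probe sets were higher and 3.39% lower. At an unadjusted p under 0.05, 70 were higher by more than 1 and 0 lower, for which no share of all probe sets is given here. The WT ACC difference had a median of 1.51 (-0.18 to 4.94) over the members and 0.033 over all probe sets. The WT ACC array was above both WT controls for 93 of the 97 members, against 40.5% of all probe sets. It was below both for 1, against 34.1%. The WT difference was larger than that of both transgenics for 55 members, smaller than both for 28 and between them for 14. These counts use the mean of both WT controls, and no share of all probe sets is given for them. Against replicate 1 alone the members' median WT difference was 1.79, and against replicate 2 alone it was 1.11. The transgenic medians were 1.2 and 1.12, so the comparison depended on the control used. A difference between genotypes in the ACC response was not tested. As 1 WT array received ACC, its spread was taken from the other groups. A fit of WT arrays alone called 0 members by limma, with 63 beyond 1 at an unadjusted p under 0.05. For the 63, no share of all probe sets is given here. Without WT control replicate 1, fewer members were called.

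**Figure D1:**
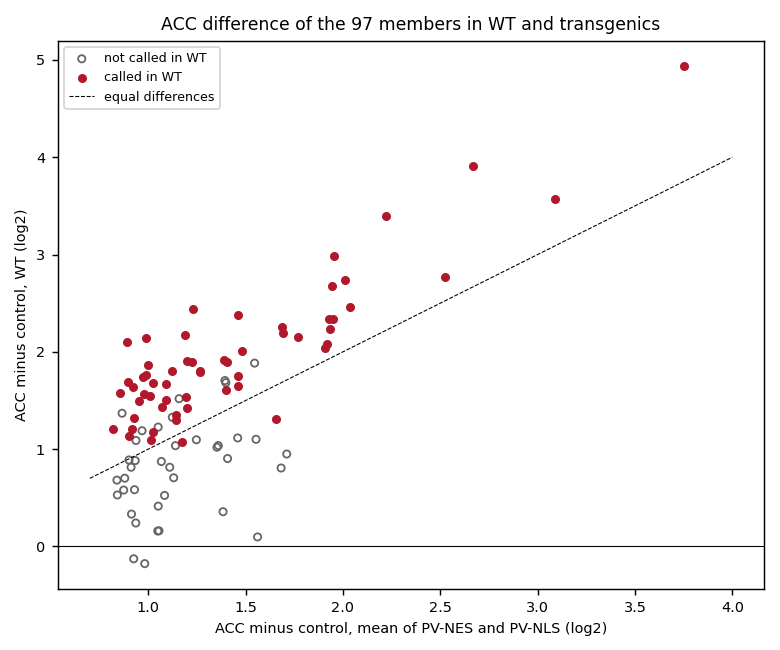
Difference between ACC and control in WT (vertical, log2) against the mean of the same difference in *PV-NES* and *PV-NLS* (horizontal, log2) for the 97 members, 1 point each. Filled points are the 58 called in WT, and the dashed line marks equal differences. Almost all points lie above 0 in WT, and the highest is AT4G33720 at 4.94.

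Class III peroxidases, secreted haem enzymes that oxidise cell wall phenolics and generate or use hydrogen peroxide, made up 7 of the 48 named members: AT1G49570, Prx37, AT3G49960, AT4G11290, AT1G34510, AT4G26010 and AT2G43480. In WT, 5 of the 7 were higher after ACC and 0 were lower. AT1G49570 (probe set 261606_at) stood at 6.61, 5.78 and 5.89 in the *PV-NES* controls of lines 1, 7 and 11, at 8.95, 9.25 and 9.51 after ACC, at 4.05, 4.40 and 4.74 after ABA, and at 9.77, 9.22 and 10.02 after MeJA. In *PV-NLS* lines 4, 5 and 8 it was 5.72, 7.0 and 6.18 in the controls, 9.29, 9.54 and 9.16 after ACC, 4.36, 5.26 and 4.42 after ABA, and 9.25, 9.56 and 9.70 after MeJA. In WT it was 6.30 and 4.98 in the controls, 9.22 after ACC, 4.56 after ABA and 9.13 after MeJA. ACC and MeJA arrays were thus high in all 3 genotypes, ABA arrays were the lowest, and none of these groups overlapped with the controls. The WT difference was 3.57 ± 0.49 (SE) after ACC (limma, adjusted p = 0.000117) and 3.48 ± 0.49 after MeJA (adjusted p = 3.36e-05).

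Prx37 (255110_at) was 5.70, 5.45 and 5.83 in the *PV-NES* controls and 7.78, 7.71 and 7.75 after ACC. It was 5.11, 5.88 and 6.0 in the *PV-NLS* controls and 8.14, 8.19 and 7.74 after ACC. The WT controls were 5.19 and 5.22 and the WT ACC array 8.60, so no ACC array overlapped with a control, and the WT difference was 3.40 ± 0.36 (limma, adjusted p = 2.06e-05). After MeJA the same gene was 7.69, 7.69 and 6.64 in the *PV-NES* lines, 7.65, 8.33 and 7.85 in the *PV-NLS* lines and 6.27 in WT. After ABA it was 4.69, 4.90 and 5.06, then 4.85, 4.57 and 4.60, and 4.96. ABA arrays were below every control of the same genotype. The WT MeJA difference of 1.06 missed the threshold (limma, adjusted p = 0.0528).

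AT4G11290 (254914_at) was the peroxidase whose ABA response in WT passed the test in the opposite direction to ACC. Its WT signal was 5.80 and 5.92 in the controls, 7.90 after ACC, 4.26 after ABA and 6.26 after MeJA, which gave 2.04 ± 0.29 for ACC (limma, adjusted p = 0.000177) and -1.60 ± 0.29 for ABA (adjusted p = 0.000897). The *PV-NES* lines had 5.56, 5.55 and 5.73 in the controls, 7.91, 7.76 and 7.83 after ACC, 4.51, 5.00 and 5.27 after ABA, and 6.98, 6.83 and 6.39 after MeJA. The *PV-NLS* lines had 5.85, 6.32 and 6.40, then 7.69, 7.96 and 7.70, then 4.59, 4.13 and 4.99, and last 6.87, 7.11 and 7.16. In both, the 4 treatments kept the order ACC, MeJA, control, ABA with no overlap.

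AT3G49960 (252238_at) shared the ACC response but not the fall after ABA. It was 5.68, 5.90 and 5.88 in the *PV-NES* controls, 7.41, 8.32 and 7.77 after ACC, 6.82, 7.05 and 7.73 after ABA, and 7.16, 5.95 and 5.96 after MeJA. In *PV-NLS* it was 5.69, 5.93 and 6.01 in the controls, 7.98, 7.80 and 7.50 after ACC, 6.17, 6.99 and 6.92 after ABA, and 6.56, 7.32 and 6.28 after MeJA. In WT it was 5.19 and 6.22, then 8.05, 6.52 and 6.05. Every ABA array thus lay above the controls of its genotype, and ABA and ACC arrays overlapped in *PV-NES* alone. ACC raised it in WT by 2.34 ± 0.49 (limma, adjusted p = 0.003), and neither ABA (0.82, adjusted p = 0.329) nor MeJA (0.35, adjusted p = 0.715) passed. Of the other peroxidases, AT2G43480 was higher in WT after ACC by 1.13 (adjusted p = 0.0107), while AT1G34510 (1.88, adjusted p = 0.0833) and AT4G26010 (1.23, adjusted p = 0.12) did not pass.

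**Figure D2:**
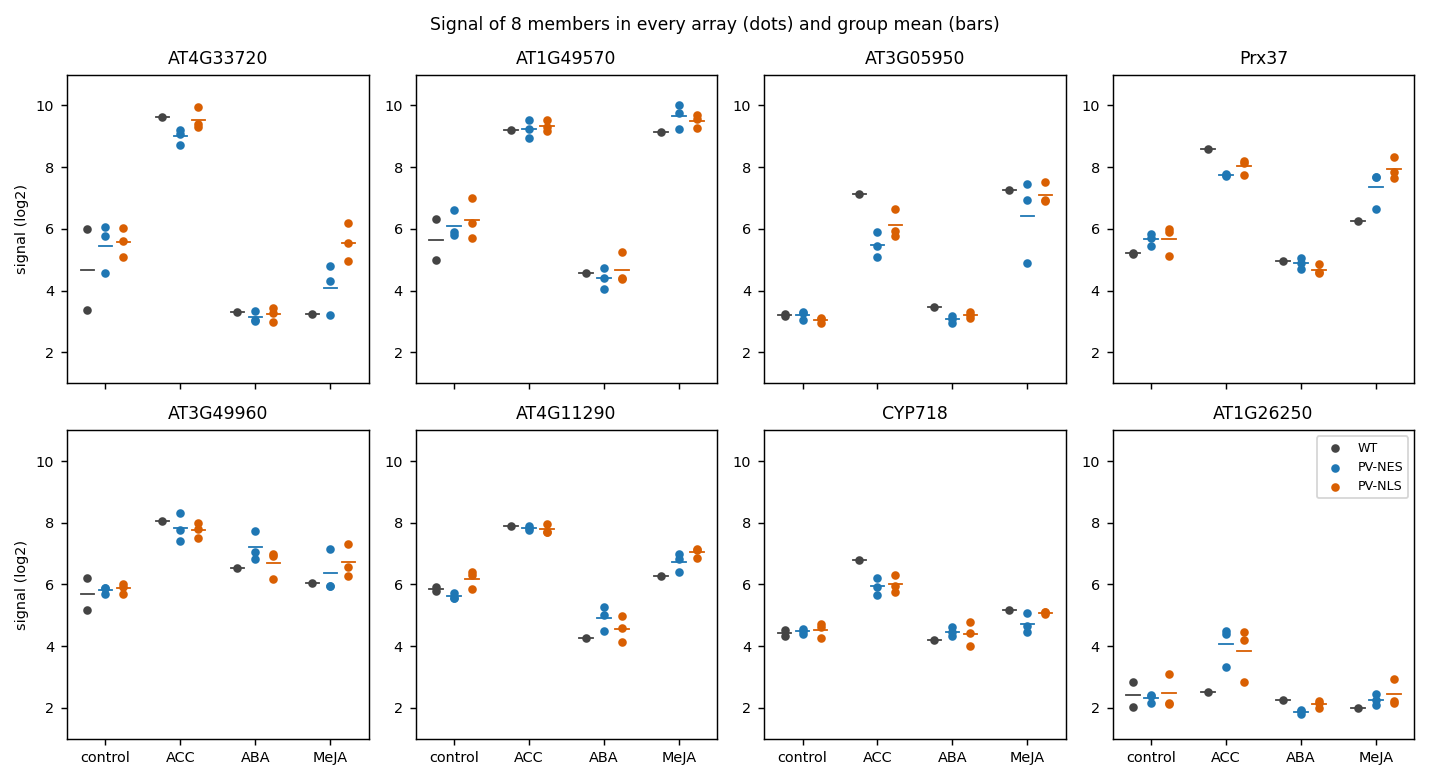
Signal (vertical, log2) of the 8 named members with the highest ACC difference in both transgenics, by treatment (horizontal). Each dot is 1 array, each bar a group mean, and colours mark WT, *PV-NES* and *PV-NLS*. ACC arrays lie above the controls in all panels except AT1G26250, where WT at 2.53 and *PV-NLS* line 4 at 2.84 lie within the control range.

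Secreted proteins of defence and proteolysis formed a group of 10, and 9 of them were higher in WT after ACC. AT4G33720 (253301_at), a CAP protein of the pathogenesis-related protein 1 type, had the highest ACC difference of all members in WT and in both transgenics. In *PV-NES* it was 6.06, 4.56 and 5.75 in the controls, 9.21, 8.72 and 9.07 after ACC, 3.05, 3.01 and 3.34 after ABA, and 4.31, 4.78 and 3.19 after MeJA. In *PV-NLS* it was 5.61, 6.03 and 5.10 in the controls, 9.38, 9.96 and 9.28 after ACC, 3.27, 3.45 and 2.98 after ABA, and 6.18, 5.53 and 4.95 after MeJA. In WT it was 5.99 and 3.37 in the controls, 9.62 after ACC, 3.31 after ABA and 3.25 after MeJA. Within each genotype, ACC arrays were far above all others, ABA arrays were below all controls, and MeJA arrays overlapped with the controls in both transgenics. The WT difference was 4.94 ± 0.72 after ACC (limma, adjusted p = 0.000185). The WT differences of -1.37 after ABA and -1.43 after MeJA did not pass (adjusted p = 0.249 and 0.218), the 2 controls lying far apart.

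AT3G05950 (258746_at), a germin-like protein of the cell wall, was near 3 in every control and every ABA array and was high after both ACC and MeJA. The *PV-NES* lines had 3.05, 3.30 and 3.29 in the controls, 5.09, 5.43 and 5.90 after ACC, 3.08, 3.19 and 2.96 after ABA, and 7.45, 4.88 and 6.94 after MeJA. The *PV-NLS* lines had 3.09, 3.11 and 2.94, then 6.66, 5.94 and 5.78, then 3.30, 3.22 and 3.11, and last 6.92, 6.89 and 7.52. WT had 3.24 and 3.18 in the controls, 7.12 after ACC, 3.45 after ABA and 7.25 after MeJA. MeJA-treated *PV-NES* line 7 was low among the MeJA arrays. WT differences were 3.91 ± 0.57 after ACC (limma, adjusted p = 0.000185) and 4.04 ± 0.57 after MeJA (adjusted p = 3.4e-05), and 0.25 after ABA (adjusted p = 0.855).

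AT1G52070, a jacalin-related lectin, and PDF2.5, a plant defensin, also rose in WT after ACC, by 1.77 ± 0.55 (limma, adjusted p = 0.0348) and 1.80 ± 0.49 (adjusted p = 0.0166). The AT1G52070 call was lost with the line as a block, with trended and robust variances and, at 1.61, without WT control replicate 1. That of PDF2.5 was lost, at 1.14, without the same control. AT1G52070 had the largest fall after ABA among the members in WT. Its WT signal was 5.87 and 6.18 in the controls, 7.79 after ACC, 2.85 after ABA and 7.67 after MeJA. In *PV-NES* it was 6.28, 5.98 and 6.48 in the controls, 6.88, 7.84 and 6.74 after ACC, 3.25, 3.65 and 3.66 after ABA, and 7.97, 5.88 and 7.58 after MeJA, and in *PV-NLS* 5.86, 6.47 and 6.89, then 7.88, 7.61 and 6.96, then 3.19, 3.32 and 3.29, and 7.76, 7.81 and 7.92. All 7 ABA arrays were below 4, and every MeJA array but that of *PV-NES* line 7 was above the controls of its genotype. PDF2.5 was 5.90 and 7.23 in the WT controls, 8.36 after ACC, 7.24 after ABA and 6.23 after MeJA, so ABA and MeJA lay close to or within the control range. The rest of this group in WT were the CAP protein AT4G25790 (0.71, adjusted p = 0.231), the subtilases ATSBT5.2 (1.43) and SBT4.12 (1.07), the chitinase AT1G56680 (1.49), the beta-1,3-glucanase AT4G16260 (1.64) and the ribonuclease T2 protein AT1G14220 (1.18), all of which passed except AT4G25790.

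Of 4 members that act in the cell wall and cytoskeleton, 2 were higher in WT after ACC. XTH19, a xyloglucan endotransglucosylase/hydrolase that cuts and rejoins wall polymers, was 5.62 and 7.31 in the WT controls, 8.56 after ACC, 7.93 after ABA and 5.85 after MeJA. It was 7.0, 6.86 and 6.97 in the *PV-NES* controls, 7.68, 7.89 and 7.93 after ACC, 7.58, 8.02 and 7.87 after ABA, and 6.45, 5.88 and 5.68 after MeJA. In *PV-NLS* the controls were 7.16, 6.93 and 7.41, the ACC arrays 7.97, 8.30 and 7.91, the ABA arrays 7.76, 7.63 and 7.24, and the MeJA arrays 6.40, 6.31 and 6.19. MeJA arrays of both transgenics were below all controls, while WT after MeJA lay between its controls. The WT ACC difference was 2.10 ± 0.40 (limma, adjusted p = 0.00133), or 1.26 without WT control replicate 1, still called.

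TUB1, a beta-tubulin, was also high after ACC and low after MeJA. It was 4.79 and 6.37 in the WT controls and 7.49 after ACC (1.90 ± 0.40, limma, adjusted p = 0.00317, or 1.11 and not called without WT control replicate 1), 6.25 after ABA and 5.02 after MeJA. In *PV-NES* it was 5.90, 5.91 and 6.07 in the controls, 7.20, 7.10 and 7.17 after ACC, 6.17, 6.28 and 6.57 after ABA, and 5.74, 4.72 and 5.19 after MeJA, and in *PV-NLS* 5.78, 6.07 and 6.34, then 7.29, 7.19 and 7.31, then 5.98, 6.20 and 6.14, and 5.01, 4.77 and 5.48. ACC arrays were the highest and MeJA arrays were below all controls in both. GH9C1, a glycosyl hydrolase of the cellulase family, differed by 0.53 in WT after ACC (adjusted p = 0.432).

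AT1G26250 (245874_at), a proline-rich extensin-like wall protein, had no detectable ACC difference in WT. The *PV-NES* controls were 2.37, 2.16 and 2.43 and the ACC arrays 4.41, 3.33 and 4.48. The *PV-NLS* controls were 2.12, 2.17 and 3.11 and the ACC arrays 2.84, 4.47 and 4.21, so that line 4 overlapped with the controls. The WT controls were 2.84 and 2.03 and the WT ACC array 2.53, a difference of 0.10 ± 0.51 (limma, adjusted p = 0.93). All of its ABA arrays were between 1.82 and 2.26 and its MeJA arrays between 2.00 and 2.95. These are among the lowest signals of the arrays, whose lowest value was 1.35. WAG2 was likewise at -0.13 ± 0.23 in WT (adjusted p = 0.784). In all, the WT ACC difference was under 0.4 for 8 members and at least 0.8 for 81.

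Of 10 members grouped under metabolism, 4 were higher in WT after ACC. CYP718 (263970_at), a cytochrome P450, responded more to ACC than to the other hormones. It was 4.51 and 4.34 in the WT controls, 6.81 after ACC, 4.18 after ABA and 5.18 after MeJA. The *PV-NES* lines had 4.56, 4.40 and 4.49, 5.67, 5.92 and 6.23, 4.45, 4.34 and 4.63, and 5.09, 4.45 and 4.65 in the same order of treatments, and the *PV-NLS* lines 4.72, 4.28 and 4.62, 5.75, 6.31 and 5.96, 4.44, 4.01 and 4.77, and 5.12, 5.06 and 5.10. ACC arrays were above all others in each genotype. MeJA arrays were above the controls in WT, by 0.76 (limma, adjusted p = 0.0757), and in *PV-NLS*, by 0.55, and overlapped with them in *PV-NES*. The WT ACC difference was 2.38 ± 0.28 (limma, adjusted p = 4.11e-05). The terpene synthase family gene AT3G29410 (1.54), the tropinone reductase TRI (1.35) and the NAD(P)-binding AT1G76470 (1.74) also rose. The glycosyltransferase UGT71C3 (0.70), the alkaline-phosphatase-like AT4G29690 (1.10), the NAD(P)-binding AT1G66800 (1.68), the acyltransferase AT5G47980 (1.33), the sulfurtransferase STR18 (1.37) and the dirigent protein AT4G11210 (0.90) did not pass, with adjusted p of 0.096, 0.121, 0.0546, 0.126, 0.0558 and 0.467.

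Among the other 17 named members, 12 were higher in WT after ACC. They were the C1 domain protein AT5G40590 (2.44), AT4G39675 (2.20), AT4G35200 (1.86), AT5G38790 (1.69), the TRAF-like AT5G26260 (1.68), the TIR-NBS-LRR receptor AT4G23510 (1.58), AT2G34910 (1.55), the dehydrin family gene AT4G38410 (1.51), the Tudor-like AT2G25590 (1.42), the transcription factor bZIP44 (1.30), AT3G12540 (1.21) and AT3G01730 (1.09). The 5 that did not pass were WAG2, AT1G14960 of the Bet v 1-like family (1.71, limma, adjusted p = 0.097), the inositol polyphosphate phosphatase family gene AT2G01900 (0.81, 0.0621), AT1G23850 (0.58, 0.172) and AT4G16670 (0.33, 0.283). These families were assembled with the values known, so their counts describe the set. Of the 32 named calls, 11 were lost without WT control replicate 1 (TUB1, PDF2.5, AT1G14220, AT2G34910, SBT4.12, AT3G12540, AT1G52070, AT5G26260, bZIP44, AT2G43480 and AT3G01730), with differences of 0.62 to 1.61. Without replicate 2, AT5G26260 was at 2.74. AT1G14220, AT1G52070, SBT4.12 and AT5G26260 also lost the call, at an unmoved difference, without at least 1 transgenic line.

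The named members lay on all 5 nuclear chromosomes, with 15, 6, 6, 14 and 7 on chromosomes 1 to 5. Chromosome 4 held 29.2% of them and 14.4% of all named genes placed on a chromosome. For chromosomes 1, 2, 3 and 5 the shares were 31.2%, 12.5%, 12.5% and 14.6%, against 26.3%, 15.3%, 20.5% and 23.4%. Whether the spread over chromosomes differed from that of all named genes was not tested. AT4G11290 and AT4G11210 were the only pair within 10 genes of each other, being 9 genes apart.

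The members divided in how they responded to ABA and MeJA. In WT, 6 of the 97 were higher after ABA and 5 were lower (limma), against 2.33% and 2.08% of all probe sets. After MeJA, 23 were higher and 1 was lower, against 2.88% and 2.16%. The median difference over the members was 0.18 (-3.18 to 2.19) after ABA and 0.40 (-2.01 to 4.97) after MeJA. The WT ABA array was above both controls for 39 members and below both for 22, against 35.4% and 36.1% of all probe sets. The WT MeJA array was above both for 52, against 41.0%, and below both for 17, against 33.4%. All 3 WT comparisons used the same 2 control arrays. Against replicate 1 alone, the members' median difference was 0.50 after ABA and 0.66 after MeJA. Against replicate 2 alone it was -0.10 and 0.10. The counts also moved with the control left out. Between WT MeJA and control the green marker RCA differed by -0.70 and the root marker BGLU23 by 0.58, and their part in the MeJA counts was not tested.

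Higher after ABA in WT were 4 named members. AT1G76470 rose by 1.60 ± 0.34 (limma, adjusted p = 0.00359), from 3.84 and 4.93 in the controls to 5.98, and was 6.12 after ACC and 6.60 after MeJA, so that all 3 hormones raised it. In *PV-NES* it was 4.27, 4.47 and 4.44 in the controls, 5.15, 5.52 and 5.27 after ACC, 6.15, 6.55 and 6.55 after ABA, and 6.60, 5.61 and 5.84 after MeJA, and in *PV-NLS* 4.46, 4.27 and 4.36, then 5.64, 5.33 and 5.18, then 5.98, 5.80 and 6.20, and 6.48, 6.92 and 6.73. No hormone array overlapped with a control in any genotype. AT2G34910 was 3.66 and 4.65 in the WT controls, 5.70 after ACC, 5.64 after ABA and 5.26 after MeJA, an ABA difference of 1.49 ± 0.37 (adjusted p = 0.00989).

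In the transgenics AT2G34910 was above its controls in every hormone array. These were 4.40, 4.29 and 4.29 (control), 4.99, 5.59 and 5.26 (ACC), 5.62, 5.76 and 6.32 (ABA) and 5.45, 4.60 and 5.27 (MeJA) in *PV-NES*, and 4.07, 4.24 and 4.26, 5.26, 5.34 and 5.17, 5.28, 5.74 and 5.99, and 5.52, 5.65 and 5.01 in *PV-NLS*. XTH19 rose by 1.46 ± 0.40 in WT after ABA (limma, adjusted p = 0.0188). ATSBT5.2 rose by 1.19 ± 0.31 (adjusted p = 0.0136), with 5.66 and 5.81 in the WT controls, 7.17 after ACC, 6.92 after ABA and 6.81 after MeJA. This subtilase was 6.15, 5.58 and 5.93 in the *PV-NES* controls, 6.91, 6.72 and 7.21 after ACC, 7.02, 6.71 and 7.13 after ABA, and 7.50, 6.80 and 7.10 after MeJA, and in *PV-NLS* 5.64, 5.83 and 5.62, then 6.99, 7.03 and 6.33, then 6.46, 6.58 and 6.71, and 7.30, 6.70 and 6.63. All hormone arrays were above the controls of their genotype. The 2 named members lower after ABA were AT4G11290 and AT1G52070, the latter by -3.18 ± 0.55 (adjusted p = 0.000507). Without WT control replicate 1 the ABA difference was 1.11 for ATSBT5.2, 0.99 for AT2G34910 and 0.62 for XTH19, and none of the 3 was called, while AT1G76470 was still called at 1.05. Without replicate 2, XTH19 was at 2.31.

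After MeJA in WT, 15 named members were higher and 0 lower. AT1G66800, a cinnamyl-alcohol-dehydrogenase-like protein, was 2.88 and 4.12 in the controls, 5.18 after ACC, 3.48 after ABA and 7.32 after MeJA, a MeJA difference of 3.83 ± 0.58 (limma, adjusted p = 8.32e-05). In *PV-NES* it was 3.30, 3.41 and 3.93 in the controls, 4.71, 4.84 and 4.70 after ACC, 4.13, 4.41 and 4.48 after ABA, and 7.98, 5.83 and 7.61 after MeJA, and in *PV-NLS* 3.96, 2.92 and 3.74, then 5.13, 5.34 and 4.92, then 3.22, 4.05 and 4.15, and 7.49, 7.72 and 7.78. MeJA gave the highest arrays, with ACC between MeJA and control. AT4G29690 was 4.35 and 6.21 in the WT controls, 6.38 after ACC, 5.55 after ABA and 9.05 after MeJA (3.77 ± 0.46, adjusted p = 5.5e-06).

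AT4G29690 was 5.11, 5.76 and 5.37 in the *PV-NES* controls, 6.45, 6.93 and 6.53 after ACC, 6.16, 6.14 and 6.33 after ABA, and 9.63, 8.90 and 9.88 after MeJA. Its *PV-NLS* arrays were 5.25, 5.49 and 5.60, then 6.59, 6.87 and 6.69, then 5.39, 6.30 and 5.83, and 9.37, 9.29 and 9.32, again with MeJA the highest and ACC next. For both genes the MeJA difference exceeded the ACC difference that placed them in the set. Besides AT1G49570 and AT3G05950, given above, the others were AT1G23850 (3.21), SBT4.12 (3.10), AT1G34510 (2.93), AT5G47980 (2.85), AT5G26260 (2.82), AT4G39675 (2.66), AT1G76470 (2.22), STR18 (2.21), TRI (1.86), AT4G23510 (1.41) and ATSBT5.2 (1.08), with adjusted p of 2.38e-08 to 0.0235 (limma). The 10 members grouped under metabolism held 6 of these calls and had a median MeJA difference of 2.04 in WT. The 4 wall and cytoskeleton genes held 0, with a median of -0.50. Without WT control replicate 1, AT1G34510 (2.15), ATSBT5.2 (1.00) and STR18 (1.33) lost the call, and AT5G26260 was still called at 1.76.

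In the transgenics, ABA and MeJA were set against the same control arrays that chose the members, so these differences are a description without a test. After ABA, 27 members were more than 1 above control in *PV-NES* and 5 more than 1 below (1.91% and 1.16% of all probe sets), and 16 and 10 in *PV-NLS* (1.75% and 2.20%). After MeJA, 30 were above and 4 below in *PV-NES* (2.47% and 2.44%), and 39 and 4 in *PV-NLS* (2.94% and 2.72%). In WT the same untested counts were 13 and 7 after ABA (2.63% and 2.53%) and 31 and 3 after MeJA (3.13% and 2.54%). After ABA the median was 0.59 for *PV-NES* and 0.25 for *PV-NLS*, and after MeJA 0.39 and 0.78.

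Across genotypes, 24 members were more than 1 above control after MeJA in all 3, 16 of them named, as were 1.97% of all probe sets. The 16 were AT1G49570, AT3G05950, Prx37, AT4G39675, AT4G29690, AT1G66800, AT4G11210, AT1G34510, ATSBT5.2, SBT4.12, AT5G47980, TRI, AT1G76470, AT5G26260, STR18 and AT1G23850. After ABA, 10 were above in all 3 (1.15% of all), of which AT2G34910, AT1G76470 and STR18 are named, and 4 were below in all 3 (0.849%), of which AT4G33720, AT1G49570 and AT1G52070 are named. AT1G49570 was thus high after MeJA and low after ABA in every genotype. A further 33 members, 18 of them named, stayed within 1 of the control under both hormones in all 3 genotypes, as did 88.0% of all probe sets. The 18 were CYP718, AT1G26250, TUB1, AT3G29410, AT5G40590, AT4G38410, AT4G35200, PDF2.5, AT1G14220, AT2G25590, bZIP44, UGT71C3, AT2G43480, AT2G01900, AT5G38790, AT3G01730, AT4G16260 and WAG2. For 49 members, 24 of them named, ACC gave the highest of the 4 group means in all 3 genotypes. The rule itself set ACC above control in 2 of the 3, so nothing is read from the 5.5% of all probe sets with that order.

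**Figure D3:**
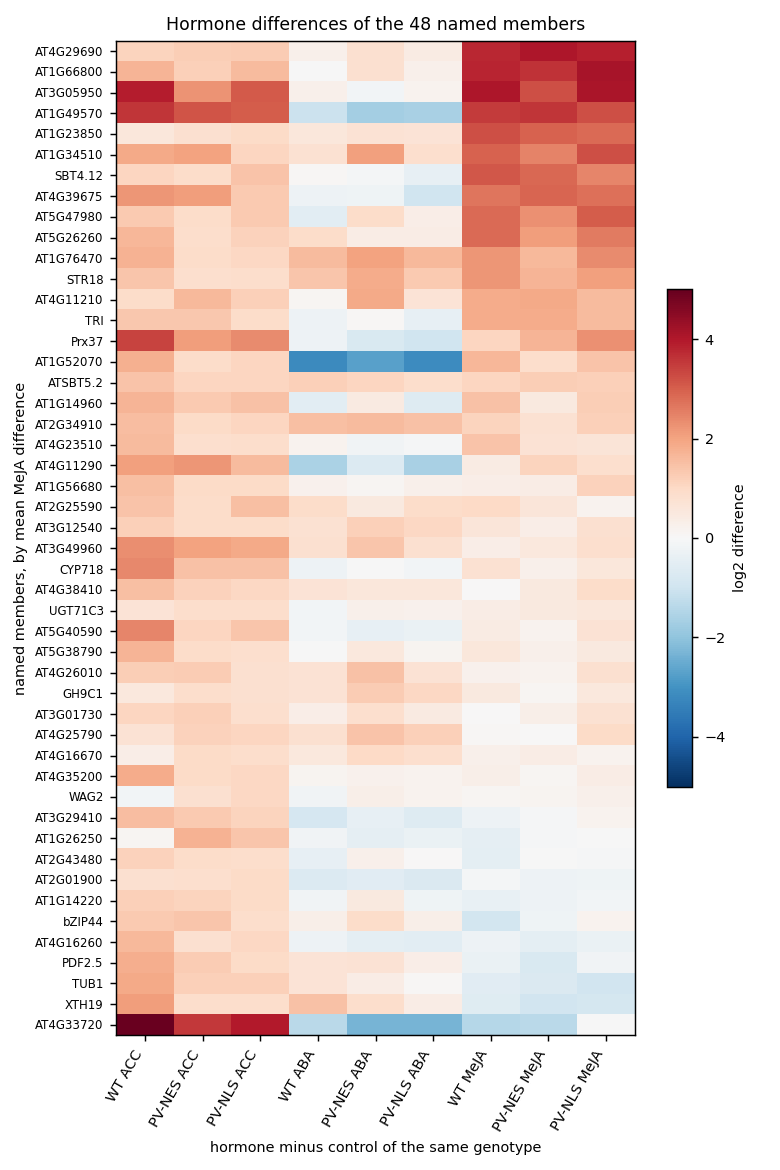
Hormone minus control of the same genotype (colour, log2 difference) for the 48 named members, in rows ordered by the mean MeJA difference, with hormone and genotype in columns. The ACC columns of both transgenics are positive by the rule. The MeJA columns run from about 4 in AT4G29690, AT1G66800 and AT3G05950 at the top to negative values in XTH19, TUB1 and AT4G33720 at the foot, and AT1G52070 has the lowest ABA values.

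The MeJA values differed between lines. The members' median MeJA difference was 0.90 in *PV-NES* line 1 but 0.05 in line 7 and 0.09 in line 11, and it was 0.87, 0.99 and 0.46 in *PV-NLS* lines 4, 5 and 8. After ABA the medians by line were 0.47, 0.57 and 0.78 for *PV-NES*, then 0.06, 0.39 and 0.26 for *PV-NLS*. The WT medians depended on which control was used, at 0.66 against replicate 1 and 0.10 against replicate 2 for MeJA, 0.50 and -0.10 for ABA, and 1.79 and 1.11 for ACC. The ACC median was thus above 0.9 against either WT control. It was also above 0.9 in every transgenic line, which follows in large part from the rule.

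**Figure D4:**
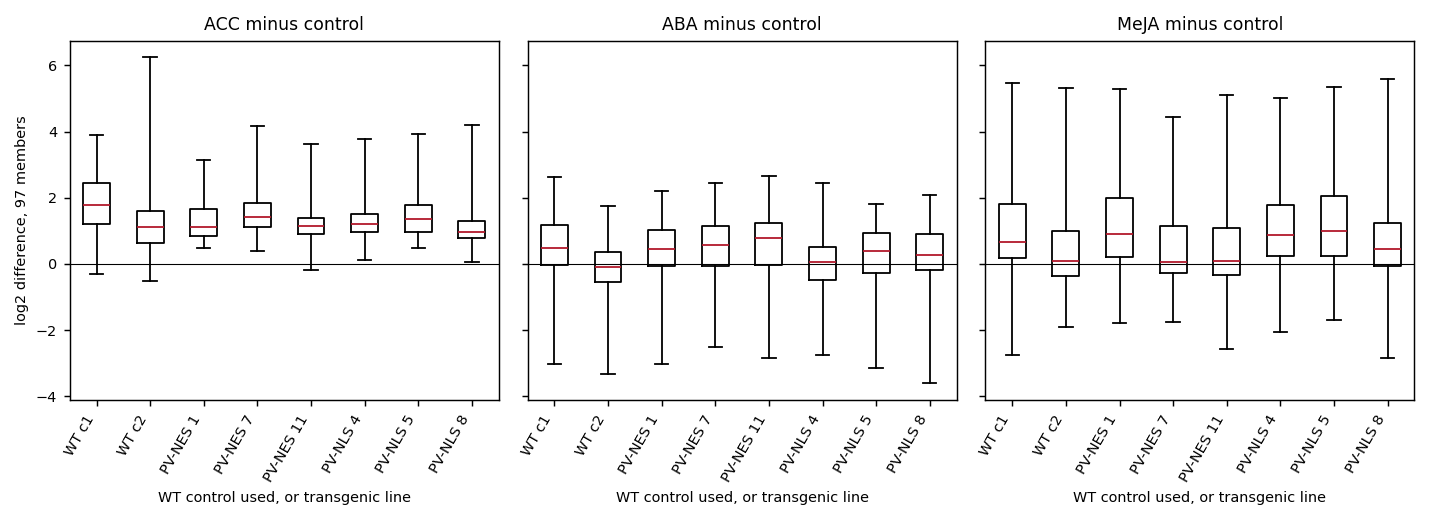
Distribution over the 97 members of the difference (log2) between each hormone and control, by transgenic line (array minus control array of the same line) and, for WT, against control replicate 1 (c1) or 2 (c2). Boxes span the quartiles, red lines are medians and whiskers reach the lowest and highest member. ACC boxes lie above 0 throughout, in the transgenic lines largely by the rule. MeJA medians of the lines range from 0.05 in *PV-NES* line 7 to 0.99 in *PV-NLS* line 5.

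ABA and MeJA were compared with each other within each transgenic genotype, which uses no array of the rule. In *PV-NES*, 20 of the 97 members were higher after ABA than after MeJA and 23 were lower (limma), against 2.61% and 2.47% of all probe sets. In *PV-NLS*, 6 were higher and 32 lower, against 4.29% and 3.91%. Of these, 28 members were called in both genotypes, 23 of them lower after ABA and 5 higher. The 3 ABA arrays were all below the 3 MeJA arrays for 28 members in *PV-NES* (16.9% of all probe sets) and 41 in *PV-NLS* (22.1%), and all above for 24 (17.7%) and 11 (22.3%). The higher calls in *PV-NES* moved with single lines. They numbered 28 without line 1, 8 without line 7 and 5 without line 11, while the lower calls numbered 20, 24 and 22. In *PV-NLS*, 5 to 6 were higher and 29 to 35 lower with any 1 of its lines left out. For these fits with a line left out, no share of all probe sets is given here, so the counts describe the members alone. The tissue markers also differed between ABA and MeJA. RCA was at 0.45 in *PV-NES* (limma, adjusted p = 0.00425) and 1.13 in the *PV-NLS* lines (adjusted p = 2.69e-08), and BGLU23 was at -0.59 (adjusted p = 0.000332) and -0.58 (adjusted p = 0.000197). Their part in these counts was not tested.

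The same 2 named members were furthest below in both genotypes. AT1G49570 differed by -5.27 ± 0.33 in *PV-NES* (limma, adjusted p = 1.42e-11) and by -4.83 ± 0.33 in the other genotype (adjusted p = 5.81e-11), and AT1G52070 by -3.63 ± 0.37 (adjusted p = 7.23e-08) and -4.56 ± 0.37 (adjusted p = 1.2e-09). AT3G05950 followed with -3.34 and -3.90, then AT4G29690 with -3.26 and -3.49, AT4G39675 with -3.12 and -3.76, SBT4.12 with -2.97 and -2.86, and AT1G66800 with -2.80 and -3.86, each called in both. Prx37 (-2.46 and -3.27), AT1G23850 (-2.21 and -2.16), AT4G11290 (-1.81 and -2.48), TRI (-1.81 and -1.98), AT5G26260 (-1.69 and -2.25) and AT5G47980 (-1.37 and -2.69) were also called in both. AT5G47980 was at -0.74 in *PV-NES* without line 1, and not called. Called in *PV-NLS* alone were AT1G34510 (-2.38), AT4G33720 (-2.32), AT1G14960 (-1.84) and AT5G40590 (-1.07). Without *PV-NLS* line 4, AT1G14960 was at -1.39 and not called. By the t-test of the study's methods, several of these calls did not pass in *PV-NES*. They were AT1G52070, AT3G05950, AT1G66800, Prx37, AT4G11290, AT5G26260 and AT5G47980 (adjusted p of 0.0503 to 0.194). In *PV-NLS*, AT5G47980 (adjusted p = 0.0531) and AT1G14960 (0.102) did not pass that t-test.

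Higher after ABA than after MeJA in both were XTH19, by 1.81 ± 0.27 in *PV-NES* (limma, adjusted p = 1.81e-05) and by 1.24 ± 0.27 in the *PV-NLS* lines (adjusted p = 0.00063), and TUB1, by 1.12 ± 0.27 (adjusted p = 0.00402) and 1.02 ± 0.27 (adjusted p = 0.00395). In *PV-NES* alone, the limma test was passed by PDF2.5 (1.46), AT4G25790 (1.40), AT4G26010 (1.28), GH9C1 (1.16) and bZIP44 (1.12). By the t-test of the study's methods, none of these passed in *PV-NES*, nor did TUB1 (adjusted p of 0.0744 to 0.29). TUB1 did not pass that t-test in *PV-NLS* either (adjusted p = 0.0523). PDF2.5 was 6.51, 6.40 and 6.52 in the *PV-NES* controls, 7.31, 8.29 and 7.68 after ACC, 7.08, 7.32 and 7.16 after ABA, and 6.56, 4.65 and 5.98 after MeJA, with line 7 the lowest. In *PV-NLS* it was 6.88, 6.73 and 7.07, then 8.09, 7.71 and 7.76, then 7.10, 7.30 and 7.23, and 6.87, 6.62 and 6.66. ABA and MeJA arrays did not overlap in either genotype.

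AT4G25790 was 5.87, 5.59 and 6.43 after ABA and 4.78, 4.62 and 4.28 after MeJA in *PV-NES*, where controls were 4.27, 4.63 and 4.71 and ACC arrays 5.34, 5.98 and 5.80. In *PV-NLS* it was 5.14, 5.49 and 6.17 after ABA and 5.36, 5.77 and 4.98 after MeJA, which overlapped, with 4.32, 4.59 and 4.33 in the controls and 5.42, 5.52 and 5.57 after ACC. WT stood at 3.99 and 4.71, 5.05, 5.15 and 4.41 in the order control, ACC, ABA and MeJA. AT4G26010 was 7.37, 7.67 and 8.27 after ABA and 7.55, 5.69 and 6.23 after MeJA in *PV-NES*, so that line 1 overlapped. Its *PV-NES* controls were 6.17, 6.34 and 6.41 and its ACC arrays 7.20, 7.96 and 7.62. The *PV-NLS* arrays were 6.44, 6.49 and 6.79 in the controls, 7.44, 7.31 and 7.41 after ACC, 6.74, 7.33 and 7.84 after ABA, and 7.56, 7.64 and 6.96 after MeJA, and in WT 5.67 and 6.57, then 7.35, 6.85 and 6.33. ABA and MeJA arrays overlapped in *PV-NLS*. Without line 7 the *PV-NES* difference was 0.91 for TUB1, 0.85 for PDF2.5, 0.93 for AT4G26010 and 0.86 for GH9C1, and without line 11 it was 0.99 for TUB1, 0.90 for AT4G26010, 1.05 for GH9C1 and 0.94 for bZIP44, none of which was called. Without *PV-NLS* line 5, TUB1 was at 0.81 in *PV-NLS* and not called. It also fell below the threshold there with repeated quantile normalisation (0.97) and with median centring (0.95).

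The difference between the genotypes was tested as an interaction. The ABA minus MeJA value was higher in *PV-NES* than in *PV-NLS* for 84 of the 97 members, against 49.8% of all probe sets, by a median of 0.59. None of the 97 passed the adjusted test of that difference (limma, 0 members, lowest adjusted p = 0.0547), which 435 of 22746 probe sets did. At an unadjusted p under 0.05 there were 31 members, or 32.0%, against 20.0% of all. No member called in 1 genotype alone was therefore shown to differ between them. The members were read from the same few arrays, so the 84 are not independent observations. The members' median MeJA difference was 0.90 in *PV-NES* line 1 but 0.05 in line 7 and 0.09 in line 11. In *PV-NLS* lines 4, 5 and 8 it was 0.87, 0.99 and 0.46.

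**Figure D5:**
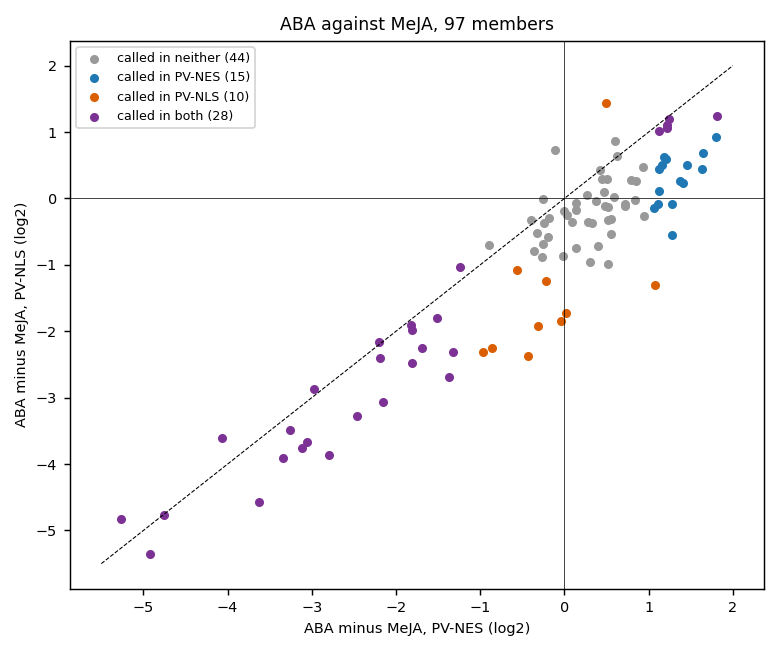
ABA minus MeJA (log2 difference) in *PV-NLS* (vertical) against *PV-NES* (horizontal) for the 97 members, 1 point each, coloured by the genotype in which the difference was called. The dashed line marks equal values. The 28 members called in both form a line from about -5 to 1, and 84 points lie below the dashed line.

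The ethylene pathway itself was thinly covered by probe sets with 1 named gene. Of 14 listed ethylene biosynthesis genes 1 was measured, of 12 perception and signalling genes 2, and of 16 response factors and outputs 1, and none of these 4 was a member. ACO3, which oxidises ACC to ethylene, differed by 0.27 in WT after ACC (limma, adjusted p = 0.613), by 0.43 in *PV-NES* and by 0.18 in *PV-NLS*. EIN3 differed by 0.18 (adjusted p = 0.548), 0.15 and 0.08, and RTE1, which promotes the function of the receptor ETR1, by 0.36 (adjusted p = 0.119), 0.42 and 0.21. The defensin PDF1.2, an output of ethylene and jasmonate together, differed by 0.22 ± 1.39 in WT (adjusted p = 0.943), by 0.15 in *PV-NES* and by -1.46 in *PV-NLS*, with the widest error of these genes. Of 16 root hair genes, the expansins EXPA7 and EXPA18 and the extensin EXT2 were measured. After ACC in WT 0 were called, at 0.04, 0.53 and -0.31 (limma, adjusted p = 0.96, 0.597 and 0.746). Without a test, they were at 0.44, 1.04 and 0.53 in *PV-NES* and at 0.68, 0.37 and 0.84 in *PV-NLS*. EXPA7 was higher after ABA than after MeJA in *PV-NES*, by 1.19 (adjusted p = 0.000492).

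Of 29 listed class III peroxidases, 18 were measured, of which 4 are members. The list missed the members AT3G49960, AT1G34510 and AT2G43480, which were recognised as peroxidases later. Among the 14 measured that are not members, 1 was higher and 0 lower after ACC in WT, with a median of 0.13: PRX38, at 1.53 ± 0.41 (limma, adjusted p = 0.0154). In the transgenics, whose ACC values chose the members and are given without a test, the 14 ranged from -1.96 to 1.10 in *PV-NES* and from -1.78 to 0.67 in *PV-NLS*. PRX7 had the highest values in both and was at 1.01 in WT (adjusted p = 0.144). PRX27 had the lowest in both and was at -1.09 in WT (adjusted p = 0.136), and PRX49 was at -0.87 in *PV-NES*, -1.38 in *PV-NLS* and -0.51 in WT (adjusted p = 0.293). After MeJA in WT, 0 of the 14 were higher and 3 lower, PRX21 (-1.70), PRX49 (-1.02) and PRX69 (-2.40), and after ABA 0 were higher and 2 lower, PRX49 (-1.45) and PRX71 (-2.55). Between ABA and MeJA, 3 were higher in *PV-NES* (PRX21 at 1.37, PRX27 at 2.03 and PRX69 at 1.58) and 1 lower (PRX38 at -1.43), and in *PV-NLS* 0 were higher and 3 lower (PRX38 at -1.75, PRX62 at -1.67 and PRX71 at -1.29). Of 12 iron uptake genes, bHLH101 (1.80, adjusted p = 0.0687) and F6H1 (1.23, adjusted p = 0.0572) were measured and did not pass after ACC in WT. F6H1, which makes the coumarin scopoletin, was lower after ABA in WT (-1.56, adjusted p = 0.02). Set against MeJA, ABA also gave less of it in *PV-NES* (-1.16) and *PV-NLS* (-2.38), and bHLH101, a transcription factor of iron deficiency, was higher (3.19 and 2.71).

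The 49 members without a single gene name behaved over a like range. In WT after ACC, 26 of them were higher and 0 lower, with differences of -0.18 to 2.99. Probe set 265170_at had the highest ACC difference among them in both transgenics, but not in WT, and was 5.08, 4.85 and 5.70 in the *PV-NES* controls, 7.75, 7.88 and 8.23 after ACC, 5.46, 5.59 and 5.64 after ABA and 9.01, 8.39 and 8.46 after MeJA. In *PV-NLS* it was 6.13, 6.0 and 5.65, then 8.33, 8.16 and 8.20, then 5.13, 5.34 and 5.95, and 8.96, 9.37 and 9.09, and in WT 5.87 and 6.09, 8.75, 5.46 and 9.01. It was thus high after ACC and MeJA in all genotypes. Probe set 247914_at was 4.67, 4.37 and 4.90 in the *PV-NES* controls, 6.16, 6.98 and 6.62 after ACC, 5.94, 6.27 and 6.88 after ABA and 6.07, 4.58 and 4.61 after MeJA, and in *PV-NLS* 4.57, 4.57 and 4.63, then 6.71, 6.67 and 6.24, then 5.30, 5.65 and 6.49, and 6.73, 7.04 and 5.33. Its MeJA arrays were high in *PV-NES* line 1 and at control level in lines 7 and 11.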

How the data were processed

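RNA of 29 seedling samples in 12 groups was measured on ATH1 arrays. For each probe set the authors deposited a log2 signal made by RMA (background correction, quantile normalisation and summary over all arrays), and no further normalisation was applied. The 64 array controls among 22810 probe sets were not analysed. The members and the gene lists were chosen with earlier results of these data known.

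A model of group means was fitted in R 4.3.3 by limma 3.58.1 (17 residual and 5.94 prior degrees of freedom), with 1 variance per probe set shared by all 12 groups, so each lone WT array is taken to vary as the other groups do. A probe set was called at a log2 difference beyond 1 and a Benjamini-Hochberg adjusted p under 0.05 over 22746 probe sets. The script was tested on simulated data. Transgenic replicates are independent lines, and nothing states whether the WT arrays came from separate cultures, so p-values may reflect technical spread. Gene names came from the platform annotation, which gave 1 gene for 13513 probe sets, several for 503 and none for 8730, and gene order came from TAIR10.1. The rule for full values took the 8 named members with the highest smaller ACC difference and up to 4 named members called per comparison and direction. The number of arrays limits the precision. No probe sequences are given.

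By the labels, the same 3 lines of a genotype received every treatment. After subtraction of group means, the median correlation between arrays of 1 line was 0.008 (*PV-NES*) and 0.108 (*PV-NLS*), and between arrays of different lines it was -0.025 and -0.059. As no block is given in the methods, the line entered only as an alternative. The other alternatives were repeated quantile normalisation, median centring, a brightness filter, limma with a trend and robust variances, the methods' t-test, a fit within each genotype, a stricter membership threshold and each array or line left out.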

Additional observations from a re-analysis of the deposited data

How the results depend on the processing

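Of 82 counts of called members under other settings, 65 were within 1.5 times the reported count and 17 were not. Except for the fit of WT arrays alone, no share of all probe sets is given for these settings. Their counts therefore describe the members alone. For a replicate block, with the line as a term of the fit, the counts were 55 after ACC, 11 after ABA and 24 after MeJA in WT, and 42 in *PV-NES* and 37 in *PV-NLS* between ABA and MeJA, against 58, 11, 24, 43 and 38. The block removed the WT ACC calls of AT1G52070 and AT1G14220 among the named members, and trended and robust variances those of AT1G52070 and AT5G26260. With a filter to probe sets above the median brightness, which leaves 49 members, the counts were 33 after ACC and 15 after MeJA in WT, 26 in *PV-NES* and 25 in *PV-NLS*. With a membership threshold of 1, which leaves 50, they were 34 after ACC, 3 after ABA and 13 after MeJA in WT, 25 in *PV-NES* and 23 in *PV-NLS*. A fit of WT arrays alone called 0 after ACC, 2 after ABA and 9 after MeJA (limma), against 0.0%, 0.378% and 0.572% of all probe sets. It had too few arrays to estimate the spread of a group. The methods' t-test called 14 in *PV-NES*, and the cause was not tested. Among named members, it lost the lower calls of AT3G05950, Prx37, AT4G11290, AT1G66800, AT5G47980, AT1G52070 and AT5G26260 in *PV-NES*. The higher calls it lost there were TUB1, AT4G25790, PDF2.5, bZIP44, AT4G26010 and GH9C1. In *PV-NLS* it lost AT1G14960, TUB1 and AT5G47980. With each line or WT control left out in turn, counts ranged from 34 to 70 after ACC, 7 to 22 after ABA and 24 to 31 after MeJA in WT, from 27 to 48 in *PV-NES* and from 35 to 40 in *PV-NLS*. For the named members with full values, 399 of 426 settings kept the direction and the side of the threshold, 27 lost the call and 0 reversed. Calls for 21 of 32 named members after ACC in WT, 3 of 6 after ABA, 12 of 15 after MeJA, 14 of 20 in *PV-NES* and 17 of 19 in *PV-NLS* held with every single line or WT control left out. Most members are dim, which limits how well the size of a difference is known.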
